A study of Mus musculus with 6 samples.

Results

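The genes described here are 4 transcription factors that set myeloid identity (*Spi1*, *Cebpa*, *Cebpb* and *Maf*), the growth factor gene *Csf1*, and 4 colony-stimulating factor (CSF) receptor genes (*Csf1r*, *Csf2ra*, *Csf2rb* and *Csf3r*). They were taken by gene symbol from a table of 22248 genes, and all 9 were found there. Each of the 9 also passed the filter on low values, a mean of at least 1 FPKM (fragments per kilobase of transcript, scaled to the mapped fragments of the library). The data came from bone-marrow-derived macrophages (BMDMs) of C57BL/6 mice, which the labels place at postnatal week 10. The methods of the study give a younger age for the donors of BMDMs. Bone marrow cells were grown for a week with macrophage colony-stimulating factor (M-CSF), and the macrophages were not stimulated further. RNAseq was performed on 3 control libraries from Lyz2cre mice, which carry 1 Cre allele, and on 3 CITED2-deficient libraries from Cited2 fl/fl:Lyz2cre mice, which carry the same Cre allele and 2 floxed alleles of *Cited2*. The Cre recombinase is made from the *Lyz2* locus, so deletion is limited to myeloid cells that have used this locus. CITED2 is a nuclear protein that binds the coactivators CBP and p300. The labels do not say whether each library came from a separate mouse, so p-values measure only the spread between these libraries.

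M-CSF, the product of *Csf1*, signals through the receptor tyrosine kinase CSF1R and keeps macrophages alive and proliferating. Granulocyte-macrophage CSF (GM-CSF) signals through a receptor made of the ligand-binding alpha subunit encoded by *Csf2ra* and the common beta subunit encoded by *Csf2rb*, which the receptors for interleukin-3 (IL-3) and interleukin-5 share. *Csf3r* encodes the receptor for granulocyte CSF (G-CSF), best known for its role in neutrophil production. PU.1, the product of *Spi1*, is an ETS-family factor required for macrophage development, and C/EBPα and C/EBPβ are leucine zipper factors of granulocyte and monocyte differentiation and of macrophage activation. c-MAF, the product of *Maf*, is a leucine zipper factor linked to macrophage self-renewal limits and to anti-inflammatory gene expression.

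Promoter windows around the RefSeq gene start (GRCm38.p6, the build of mm10) were at hand for 5 of the 9 genes, *Cebpa*, *Cebpb*, *Csf1*, *Csf2ra* and *Csf3r*, and for *Csf2rb2*, the IL-3-specific beta subunit gene that lies beside *Csf2rb*. *Csf1* is printed because it had the largest rise of the 9 genes. The 3 receptor genes are printed because their windows hold the letters GAGGAA, the core that PU.1 recognises. Capitals mark every match to GAGGAA, the C/EBP-type letters TTGCNNAA, the MAF half-site TGCTGA, the STAT-type letters TTCNNNGAA or the interferon-type letters GAAANNGAA, searched on both strands. All sequences run 5′ to 3′ on the strand of the gene.
Csf1 promoter, chr3:107760420-107760719, minus strand: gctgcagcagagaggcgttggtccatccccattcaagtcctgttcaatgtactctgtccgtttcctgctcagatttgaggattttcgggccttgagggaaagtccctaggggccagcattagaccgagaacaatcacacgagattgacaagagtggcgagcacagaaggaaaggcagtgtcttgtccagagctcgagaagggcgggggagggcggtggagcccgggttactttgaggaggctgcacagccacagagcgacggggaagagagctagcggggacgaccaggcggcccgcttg
Csf3r promoter, chr4:126024409-126024708, plus strand: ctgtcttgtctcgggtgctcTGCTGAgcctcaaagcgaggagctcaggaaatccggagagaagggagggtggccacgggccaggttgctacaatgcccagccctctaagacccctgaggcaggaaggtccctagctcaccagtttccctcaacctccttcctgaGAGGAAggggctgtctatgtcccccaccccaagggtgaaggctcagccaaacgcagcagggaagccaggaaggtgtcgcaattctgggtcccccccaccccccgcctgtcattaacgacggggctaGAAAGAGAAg
Csf2ra promoter, chr19:61228369-61228668, minus strand: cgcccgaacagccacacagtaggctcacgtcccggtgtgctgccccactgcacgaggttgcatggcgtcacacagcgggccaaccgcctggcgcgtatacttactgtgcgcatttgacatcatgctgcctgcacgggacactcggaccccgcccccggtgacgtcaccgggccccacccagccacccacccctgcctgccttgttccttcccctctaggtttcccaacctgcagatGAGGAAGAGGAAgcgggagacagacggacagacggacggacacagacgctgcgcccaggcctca
Csf2rb2 promoter, chr15:78305672-78305971, minus strand: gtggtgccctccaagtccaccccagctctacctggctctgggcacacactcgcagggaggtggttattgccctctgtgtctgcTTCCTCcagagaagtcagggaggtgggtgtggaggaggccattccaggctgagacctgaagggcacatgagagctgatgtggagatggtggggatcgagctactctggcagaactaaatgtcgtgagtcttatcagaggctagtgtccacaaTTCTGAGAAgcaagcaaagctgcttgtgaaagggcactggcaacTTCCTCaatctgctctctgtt
Positions count the first transcribed base as 1 and the base before it as -1, and give the leftmost base of a match. The *Csf2ra* window held GAGGAA at -14 and again at -8, directly side by side. The *Csf3r* window held GAGGAA at -86, TGCTGA at -230 and GAAAGAGAA, a match to the interferon-type letters, at 41. In the *Csf2rb2* window GAGGAA lay on the opposite strand at -167 and at 30, and TTCTGAGAA, a match to the STAT-type letters, lay at -15. The windows of *Csf1*, *Cebpa* and *Cebpb* held none of the 5 motifs. Of the 32851 windows of the same length in the table, 28.3% held GAGGAA, 10.8% TTGCNNAA, 19.5% TGCTGA, 8.30% TTCNNNGAA and 8.56% GAAANNGAA. These matches describe the letters and say nothing of binding.

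The FPKM of *Cited2* checks the genotypes, and it fell from 75.5 ± 3.79 in control to 8.01 ± 1.10 in CITED2-deficient BMDMs (SD, n = 3 per genotype), with no overlap between the groups. Recovered from the FPKM, the libraries held 17125733 to 18768971 fragments in control and 22380746 to 25866421 in CITED2-deficient BMDMs, on average 1.34 times as many. Changes are given as log2 fold changes of FPKM + 1, CITED2-deficient minus control, from limma with p-values adjusted over all 11687 genes tested. Over all tested genes the median change was -0.10 with the FPKM as deposited and -0.0069 after median-ratio scaling between libraries, so each of the 9 genes is given under both. With the deposited FPKM, 5 of the 9 genes were higher in CITED2-deficient BMDMs (*Csf1*, *Csf3r*, *Cebpb*, *Csf2rb* and *Spi1*), 3 were lower (*Maf*, *Cebpa* and *Csf1r*), and *Csf2ra* did not pass the threshold of 0.05. Among all tested genes, 51.3% passed, with 16.7% higher and 34.6% lower. After median-ratio scaling all 9 passed, 6 higher and 3 lower, against a background of 44.4%, with 23.1% higher and 21.3% lower. The median of the 9 genes was 0.10 as deposited and 0.20 after scaling. Without overlap between the FPKM of the groups, 5 genes were higher and 3 lower, where the shares over all tested genes were 19.0% and 40.9%.

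**Figure D1:**
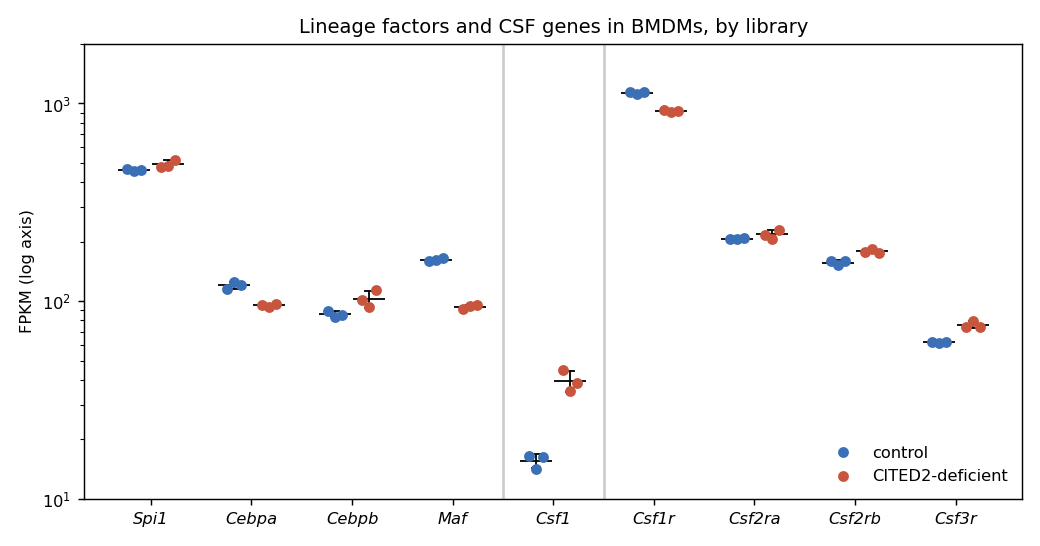
FPKM (log axis) of the 4 transcription factors, *Csf1* and the 4 receptors in each of the 3 control (blue) and 3 CITED2-deficient (red) libraries. Points are libraries, horizontal marks are means and bars are the SD. *Csf1* lies lowest at 15.6 in control and 39.5 in CITED2-deficient BMDMs, and *Csf1r* lies highest at 1135 and 916.

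*Maf* had the largest fall of the 9 genes. *Maf* (ENSMUSG00000055435, chromosome 8, 115682942 to 115707794 in mm10, minus strand) was at 160, 161 and 165 FPKM in replicates 1 to 3 of the control group and at 91.4, 94.4 and 95.5 in those of the CITED2-deficient group. The libraries of each genotype lay close together and the groups were far apart. The means were 162 ± 2.69 and 93.8 ± 2.12 (SD, n = 3 per genotype), and the level fell by 42.3% (log2 fold change -0.79 with a standard error of 0.03, adjusted p = 8.10e-08; -0.68 after median-ratio scaling). Among all 11687 tested genes, *Maf* ranked 353 in size of fall.

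The C/EBP genes moved in opposite directions. *Cebpa* (ENSMUSG00000034957, chromosome 7, 35119293 to 35121928, plus strand) was at 115, 124 and 121 FPKM in replicates 1 to 3 of the control group and at 95.3, 93.6 and 96.6 in those of the CITED2-deficient group. Every CITED2-deficient library was below every control library, with means of 120 ± 4.81 and 95.2 ± 1.54 (SD, n = 3 per genotype; difference -0.33 on the log2 scale with a standard error of 0.04, adjusted p = 7.43e-05). *Cebpb* (ENSMUSG00000056501, chromosome 2, 167688915 to 167690418, plus strand) was at 89.2, 83.5 and 85.0 FPKM in control and at 101, 93.5 and 114 in CITED2-deficient BMDMs. The groups of *Cebpb* did not overlap, but its CITED2-deficient libraries spread widely, with a coefficient of variation (SD as a percent of the mean) of 10.1% against 3.45% in control. Its mean rose from 85.9 ± 2.96 to 103 ± 10.4 (SD, n = 3 per genotype; difference 0.25 on the log2 scale with a standard error of 0.07, adjusted p = 0.0105). Without CITED2-deficient replicate 3, the highest library, the log2 fold change of *Cebpb* was 0.18 (adjusted p = 0.0195). In control *Cebpa* was the more abundant in every library, at 1.29, 1.49 and 1.42 times *Cebpb*, and in the CITED2-deficient libraries the ratio was 0.944, 1.00 and 0.847. After median-ratio scaling the changes were -0.23 for *Cebpa* and 0.36 for *Cebpb*. On the opposite strand *Cebpa* overlaps the antisense gene *Gm45091* (1.28 FPKM over all libraries), and *Cebpb* overlaps *Tmem189*. *Tmem189* was at 176 ± 3.03 FPKM in control and 196 ± 8.22 in CITED2-deficient BMDMs (SD, n = 3 per genotype). The kit marks strand, but whether strand was used in counting was not given in the sources used here, so the *Cebpb* level is uncertain.

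*Spi1*, the PU.1 gene, changed little. *Spi1* (ENSMUSG00000002111, chromosome 2, 91082390 to 91115756, plus strand) was at 464, 454 and 460 FPKM in control and at 476, 482 and 519 in CITED2-deficient BMDMs. The lowest CITED2-deficient library lay just above the highest control library. The means were 459 ± 5.03 and 492 ± 23.1 (SD, n = 3 per genotype; log2 difference 0.10, 95% confidence interval 0.020 to 0.18, adjusted p = 0.0402). This call was narrow. It was lost when any control library was left out (adjusted p = 0.0731, 0.106 and 0.0916 without replicates 1, 2 and 3) and without CITED2-deficient replicate 3 (log2 fold change 0.061, adjusted p = 0.107). After median-ratio scaling the *Spi1* difference was 0.20 (adjusted p = 0.00169). The FPKM of *Spi1* per FPKM of *Cebpa* was 4.03, 3.65 and 3.80 in control and 5.0, 5.15 and 5.37 in CITED2-deficient BMDMs.

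*Csf1*, the M-CSF gene, had the largest change of the 9 genes, while *Csf1r*, the gene of its receptor, fell. *Csf1* (ENSMUSG00000014599, chromosome 3, 107741048 to 107760469, minus strand) was at 16.4, 14.1 and 16.2 FPKM in control and at 44.7, 35.0 and 38.6 in CITED2-deficient BMDMs. These values rest on 485 to 617 recovered fragments in control and 1572 to 2260 in CITED2-deficient libraries. The lowest CITED2-deficient library was far above the highest control library, and the mean was 2.53-fold higher, at 39.5 ± 4.91 against 15.6 ± 1.29 (SD, n = 3 per genotype; difference 1.28 on the log2 scale with a standard error of 0.09, adjusted p = 3.92e-06; 1.38 after scaling). *Csf1* ranked 276 in size of rise among all tested genes. *Csf1r* (ENSMUSG00000024621) was at 1146, 1122 and 1137 FPKM in control and at 927, 906 and 913 in CITED2-deficient BMDMs. Its libraries agreed closely within each genotype, and the means of 1135 ± 12.5 and 916 ± 10.5 (SD, n = 3 per genotype) lay far outside each other's spread, and the level fell by 19.3% (log2 fold change -0.31 with a standard error of 0.02, adjusted p = 7.38e-06; -0.21 after scaling, adjusted p = 0.000142). Even after this fall *Csf1r* remained the most abundant of the 9 genes, and over the 6 libraries it ranked 59 of all tested genes. There were 69.8, 79.5 and 70.0 FPKM of *Csf1r* per FPKM of *Csf1* for control and 20.7, 25.9 and 23.6 for CITED2-deficient BMDMs. *Csf1r* overlaps *Hmgxb3* on the opposite strand, which was at 6.41 FPKM over all libraries.

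Fibroblasts and stromal cells of the marrow are a known source of M-CSF, and their markers rose along with *Csf1*. All 14 tested markers of the fibroblast and stromal list (14 of 17 passed the filter) were higher in CITED2-deficient BMDMs. Among all tested genes, 16.7% were higher with the deposited FPKM and 23.1% after median-ratio scaling. The whole stromal list summed to 97.2 to 115 FPKM in control and to 896, 375 and 380 FPKM in CITED2-deficient replicates 1 to 3. The collagen gene *Col1a1* had a mean of 15.4 FPKM in control and was at 305, 62.0 and 62.6 in CITED2-deficient replicates 1 to 3, so that its mean of 143 ± 140 (SD, n = 3) rested on replicate 1. *Dcn*, which encodes decorin, went from a mean of 3.57 to 6.85, whereas *Lum*, *Thy1* and *Tagln* stayed below the filter. CITED2-deficient replicate 1 was highest for both the stromal sum and *Csf1*. Without that library the *Csf1* log2 fold change was 1.19 (adjusted p = 6.27e-06), and 8 of the 9 genes passed the threshold. The part of stromal cells in the *Csf1* difference was not tested. In bulk RNA, more cells of a type and more RNA per cell cannot be told apart.

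**Figure D2:**
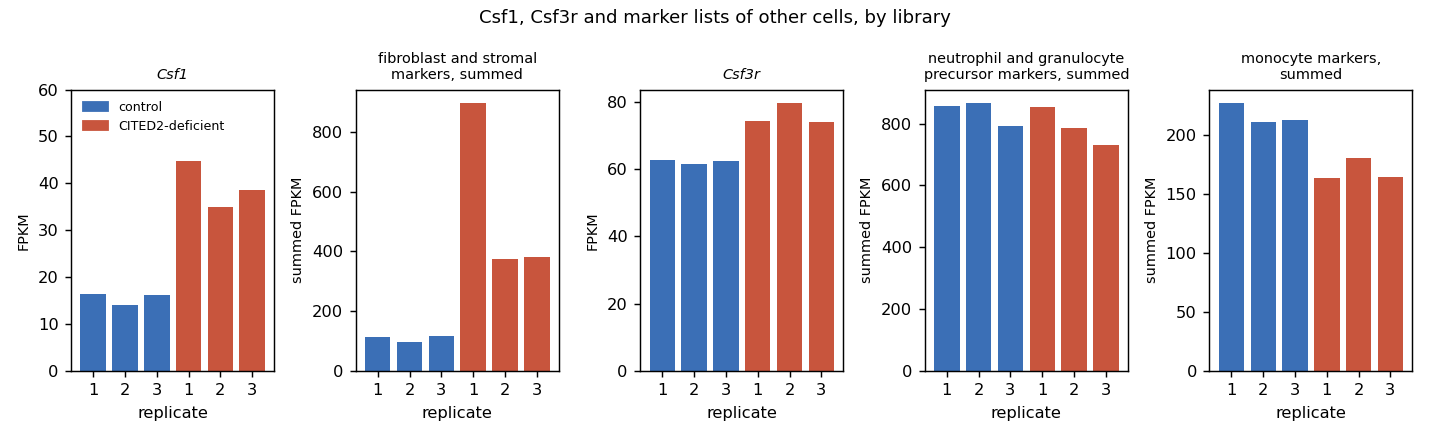
FPKM of *Csf1* and *Csf3r* and summed FPKM of the markers of 3 other cell types in each library, with control in blue and CITED2-deficient in red (bars start at 0, 1 bar per library). The stromal sum is 97.2 to 115 in control and 375 to 896 in CITED2-deficient libraries, and the neutrophil sums of the groups overlap. The monocyte sum is lower in CITED2-deficient libraries, where *F13a1* falls (178 to 24.8 FPKM) while 5 of the 6 markers are higher.

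Of the 3 genes of the GM-CSF and G-CSF receptors, *Csf3r* and *Csf2rb* rose in CITED2-deficient BMDMs. *Csf3r* (ENSMUSG00000028859, chromosome 4, 126024550 to 126044440, plus strand) was at 62.5, 61.4 and 62.3 FPKM in control and at 74.2, 79.6 and 74.1 in CITED2-deficient BMDMs. The control libraries were almost level and all 3 CITED2-deficient libraries lay above them (62.1 ± 0.595 and 76.0 ± 3.16, SD, n = 3 per genotype; difference 0.29 on the log2 scale with a standard error of 0.04, adjusted p = 0.000252; 0.39 after scaling). Neutrophils carry this receptor, so the markers of neutrophils and their precursors stand beside it. Of the 13 tested, 4 were higher, 8 were lower and 1 did not pass, where 16.7% of all tested genes were higher and 34.6% lower. The whole list summed to 793 to 867 FPKM in control and 731 to 855 in CITED2-deficient BMDMs. The primary granule genes *Mpo* (16.2 to 1.95 FPKM) and *Elane* (12.4 to 2.15) fell. Genes of later granules went both ways, as *Ltf* (94.3 to 177) and *Lcn2* (32.6 to 51.6) rose while *Camp* (47.0 to 23.1) and *Ngp* (149 to 119) fell. *Retnlg* had the largest rise of the 13 tested markers (log2 fold change 1.74), and *Mmp8* also rose (0.702). *S100a8* and *Mmp9* fell (-0.398 and -0.239). *Ly6g*, a defining marker of mature neutrophils, was below the filter at 0.276 and 0.552 FPKM. *Cxcr2* was also below the filter, at 0.220 FPKM in control and 0.908 in CITED2-deficient BMDMs, and its groups did not overlap. The part of these cells in the *Csf3r* and *Cebpa* differences was not tested.

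*Csf2rb*, the common beta subunit gene, rose slightly, and *Csf2ra*, the GM-CSF alpha subunit gene, did not pass the threshold. *Csf2rb* (ENSMUSG00000071713, chromosome 15, 78325752 to 78353847, plus strand) was at 160, 152 and 159 FPKM in control and at 177, 184 and 176 in CITED2-deficient BMDMs. The groups did not overlap, with means of 157 ± 4.42 and 179 ± 4.41 (SD, n = 3 per genotype; difference 0.19 on the log2 scale with a standard error of 0.03, adjusted p = 0.00122; 0.29 after scaling). *Csf2ra* (ENSMUSG00000059326, chromosome 19, 61223957 to 61228429, minus strand) was at 205, 207 and 208 FPKM in control and at 216, 207 and 230 in CITED2-deficient BMDMs. CITED2-deficient replicate 2 lay inside the narrow control range and the other CITED2-deficient libraries lay above it. The means were 207 ± 1.28 and 218 ± 11.9 (SD, n = 3 per genotype), and the log2 fold change of 0.073 had a 95% confidence interval of -0.016 to 0.16 (adjusted p = 0.153). *Csf2ra* passed after median-ratio scaling (0.18, adjusted p = 0.00593) and without CITED2-deficient replicate 2 (0.11, adjusted p = 0.0332). The alpha-to-beta ratio, *Csf2ra* to *Csf2rb*, was 1.28, 1.36 and 1.31 in control and 1.22, 1.12 and 1.31 in CITED2-deficient BMDMs, and these ranges overlap.

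*Csf2rb2*, whose product serves the IL-3 receptor in mice, rose with a log2 fold change of 0.71, beside 0.19 for its neighbor *Csf2rb*. *Csf2rb2* (ENSMUSG00000071714, chromosome 15, 78282507 to 78305721, minus strand) was at 175, 172 and 171 FPKM in control and at 281, 288 and 279 in CITED2-deficient BMDMs. The rise was 1.64-fold (standard error of the log2 fold change 0.03, adjusted p = 6.68e-08; log2 fold change 0.81 after scaling), with no library near the other group. The FPKM of *Csf2rb* was 0.914, 0.881 and 0.931 of that of *Csf2rb2* in control and 0.629, 0.640 and 0.632 of it in CITED2-deficient BMDMs. The pair are close paralogs, and how fragments that fit both were assigned was not given in the sources used here, so their separate levels are uncertain.

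**Figure D3:**
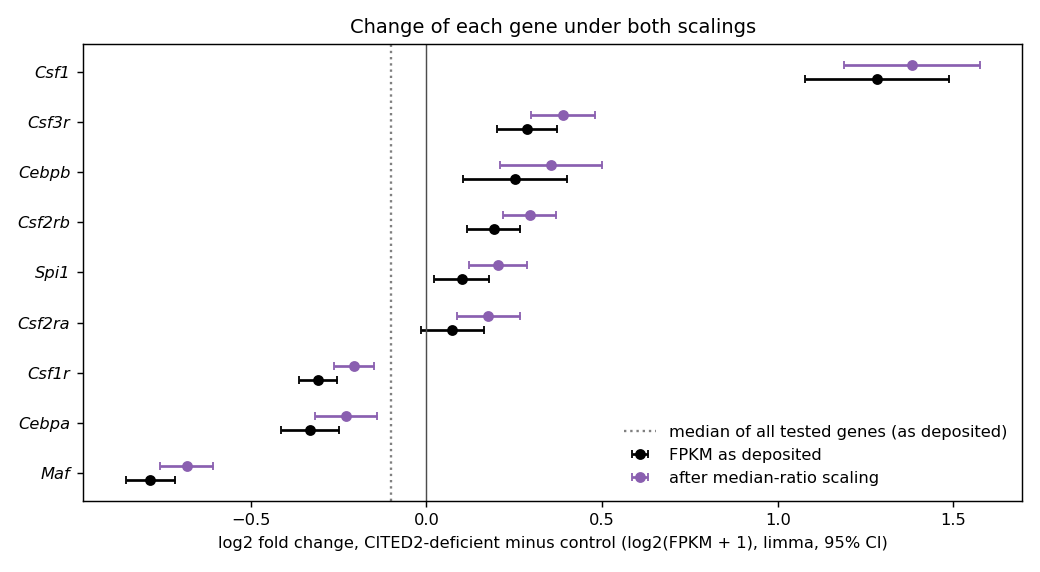
Log2 fold change of each gene (CITED2-deficient minus control, limma on log2(FPKM + 1)) with its 95% confidence interval, for the FPKM as deposited (black) and after median-ratio scaling (purple). The dotted line is the median of all tested genes, -0.10; the *Csf2ra* interval includes 0 only with the deposited FPKM.

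Ratios of 2 genes within a library do not depend on the scaling between libraries. Of the 5 ratios reported, 4 did not overlap between the genotypes. Among single tested genes, 19.0% were higher and 40.9% lower without overlap, and no such share was computed for ratios. On the log2 scale the difference, CITED2-deficient minus control, was 1.65 for *Csf1* to *Csf1r*, -0.59 for *Cebpa* to *Cebpb*, -0.52 for *Csf2rb* to *Csf2rb2* and 0.44 for *Spi1* to *Cebpa*. For *Csf2ra* to *Csf2rb* it was -0.12. The exact two-sided permutation test gave p = 0.1 for each of the 4, which is the smallest that 3 against 3 libraries allow, and 0.2 for *Csf2ra* to *Csf2rb* (0.12 and 0.2 after Benjamini-Hochberg adjustment over the 6 ratios computed). The design thus cannot pass 0.05 in this test.

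**Figure D4:**
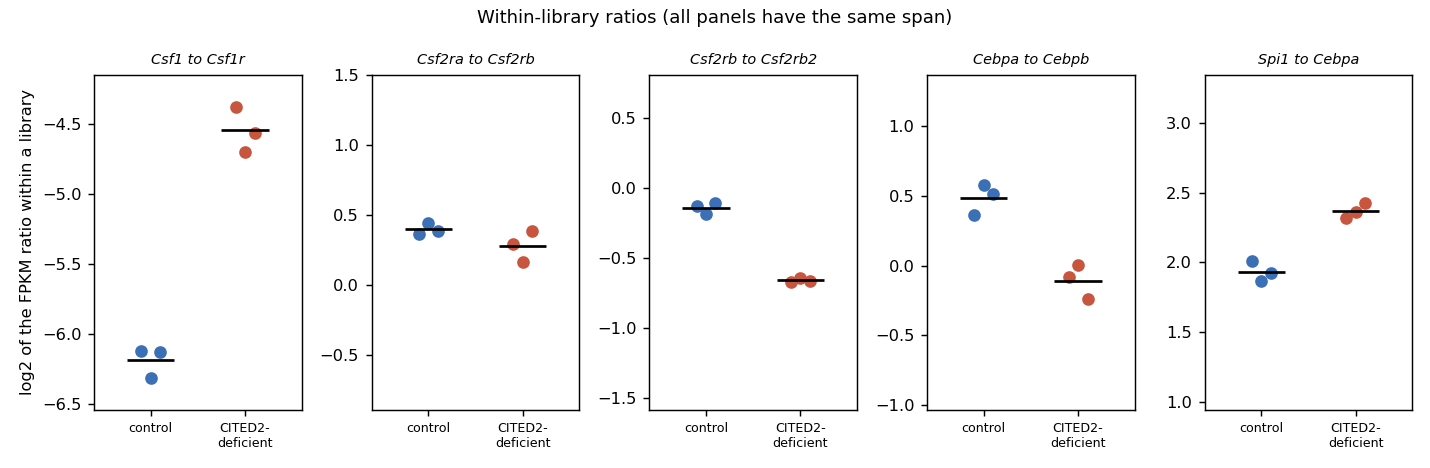
Log2 of the FPKM ratio of 2 genes in the same library for 5 pairs, with 3 control (blue) and 3 CITED2-deficient (red) libraries and a line at each mean. All panels have the same span; 4 pairs do not overlap and *Csf2ra* to *Csf2rb* does.

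Ordered by FPKM, which is a level per transcript length, the control libraries gave *Csf1r*, *Spi1*, *Csf2ra*, *Maf*, *Csf2rb*, *Cebpa*, *Cebpb*, *Csf3r* and *Csf1* from highest to lowest, and no neighbors in this order overlapped. In CITED2-deficient BMDMs *Maf* moved from the fourth place to the seventh, and *Cebpb* stood above *Cebpa*. There the ranges of *Cebpb* and *Cebpa* overlapped, as did those of *Cebpa* and *Maf*, and the order of these 3 was not resolved. The coefficient of variation between libraries was higher in CITED2-deficient than in control BMDMs for 7 of the 9 genes, against 51.3% of all tested genes.

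The other myeloid transcription factors moved both ways. Of 32 listed, 28 were tested, and 8 were higher, 8 were lower and 12 did not pass, with a median log2 fold change of -0.03 beside -0.10 for the whole table. After scaling 10 were higher and 6 lower. Among all tested genes 16.7% were higher and 34.6% lower, or 23.1% and 21.3% after scaling. These shares stand beside each list below. *Irf4*, an interferon regulatory factor, fell from 5.94 ± 0.286 to 2.09 ± 0.266 FPKM, and the orphan nuclear receptor gene *Nr4a1* from 5.50 ± 0.385 to 1.89 ± 0.123 (SD, n = 3 per genotype; log2 differences -1.17 and -1.17). *Cebpd*, a further C/EBP gene, fell from 15.3 ± 1.65 to 7.07 ± 0.702 FPKM (-1.01). *Id2*, an inhibitor of helix-loop-helix factors, rose from 61.2 ± 1.51 to 116 ± 2.29 FPKM (0.91). These 4 passed the threshold under both scalings. The most abundant of the list, the zinc finger gene *Zeb2*, was at 298 ± 4.47 and 275 ± 9.54 FPKM (log2 fold change -0.12, adjusted p = 0.0125), and it did not pass after scaling (-0.015, adjusted p = 0.744).

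Among other colony-stimulating and growth factor ligands and receptors, 8 of the 13 genes found in the table were tested, and 4 were higher, 2 were lower and 2 did not pass (median log2 fold change 0.28). *Kitl*, the stem cell factor gene, rose from 28.3 ± 1.43 to 52.0 ± 0.220 FPKM (log2 fold change 0.86). *Pdgfrb*, a platelet-derived growth factor receptor gene that also stands in the stromal list, rose from 0.936 ± 0.0561 to 2.45 ± 0.512 FPKM (0.82). *Epor*, the erythropoietin receptor gene, fell from 2.15 ± 0.218 to 0.942 ± 0.258 FPKM (-0.71). *Csf2rb2* was the most abundant of this list. *Csf2*, the GM-CSF gene, was at 0.132 FPKM in control replicate 1 and was listed at 0 in every other library of both genotypes. Its mean lay below the filter, so it was not tested.

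Genes of signalling from CSF1R moved both ways. All 28 were tested, with 9 higher, 13 lower and 6 not past the threshold (median log2 fold change -0.10), and after scaling 12 were higher and 7 lower. The adaptor genes *Gab1* and *Dok2* fell, from 10.6 ± 0.536 to 4.11 ± 0.226 FPKM (-1.18) and from 121 ± 1.84 to 58.0 ± 2.53 FPKM (-1.05). *Pik3cg*, which encodes the gamma catalytic subunit of phosphoinositide 3-kinase, fell from 34.2 ± 1.24 to 17.4 ± 0.242 FPKM (-0.94). *Cblb*, a ubiquitin ligase gene, rose from 31.1 ± 2.09 to 53.1 ± 2.72 FPKM (0.75). *Tyrobp*, which encodes the adaptor DAP12 and was the most abundant of the list, was at 1285 ± 5.55 FPKM in control and 1094 ± 50.4 in CITED2-deficient BMDMs (-0.23, adjusted p = 0.000473; -0.13 after scaling).

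Of the 13 tested genes of GM-CSF and G-CSF receptor signalling, 3 were higher, 4 were lower and 6 did not pass (median log2 fold change -0.04), and after scaling 6 were higher and 1 was lower. With the deposited FPKM 7 of these 13 genes passed, beside 51.3% of all tested genes. The kinase genes *Pim1* and *Jak2* rose, from 22.1 ± 0.291 to 37.0 ± 0.769 FPKM (log2 fold change 0.72) and from 10.2 ± 0.498 to 12.6 ± 0.568 FPKM (0.29). *Pim2* fell from 3.37 ± 0.636 to 1.84 ± 0.387 FPKM (-0.62). *Jak1*, the most abundant, was at 260 ± 3.23 and 242 ± 2.20 FPKM (-0.11, adjusted p = 0.00787) and was near 0 after scaling (-0.0023, adjusted p = 0.954). Chosen after their values were seen, the *Stat3*, *Stat5a* and *Stat5b* genes of the same pathway had log2 fold changes of -0.13, -0.14 and -0.13, and *Stat5a* did not pass (adjusted p = 0.179). After scaling none of these 3 passed (limma adjusted p = 0.526 for *Stat3*, 0.703 for *Stat5a* and 0.682 for *Stat5b*). These are RNA levels and give no measure of STAT phosphorylation.

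Of the surface and lysosomal genes of macrophages, 17 of 18 were tested, and 10 were lower, 4 were higher and 3 did not pass (median log2 fold change -0.32), where 34.6% of all tested genes were lower and 16.7% higher. After scaling the counts were 10 lower and 6 higher. The hemoglobin scavenger receptor gene *Cd163* and the mannose receptor gene *Mrc1* fell, from 17.9 ± 0.868 to 3.43 ± 0.180 FPKM (-2.09) and from 353 ± 4.09 to 104 ± 5.66 FPKM (-1.76). *Lyz2*, the lysozyme gene that carries Cre in both genotypes, fell from 31.3 ± 1.03 to 9.75 ± 0.333 FPKM (-1.59), and its level is uncertain because *Lyz1* is a near-identical copy. *Fcgr1*, the high-affinity IgG receptor gene, rose from 172 ± 0.793 to 482 ± 17.2 FPKM (1.48). *Lgals3*, the galectin-3 gene and the most abundant, rose from 3972 ± 143 to 4373 ± 204 FPKM (0.14, and 0.24 after scaling).

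Genes typical of GM-CSF-grown macrophages also moved both ways, with 5 of the 9 tested (14 listed) higher and 4 lower (median log2 fold change 0.18), and 5 and 2 after scaling. *Mmp12*, the macrophage elastase gene, rose from 193 ± 8.18 to 387 ± 5.62 FPKM (1.00), and *Fabp4*, a fatty acid binding protein gene, from 22.0 ± 3.01 to 31.0 ± 0.565 FPKM (0.49). *Ciita* and *Cd74*, of the MHC class II pathway, fell from 8.73 ± 1.12 to 5.15 ± 0.449 FPKM (-0.66) and from 1205 ± 58.9 to 798 ± 45.6 FPKM (-0.59). *Spp1*, the osteopontin gene and the most abundant, rose from 1191 ± 54.9 to 1345 ± 75.8 FPKM (0.18, and 0.28 after scaling).

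**Figure D5:**
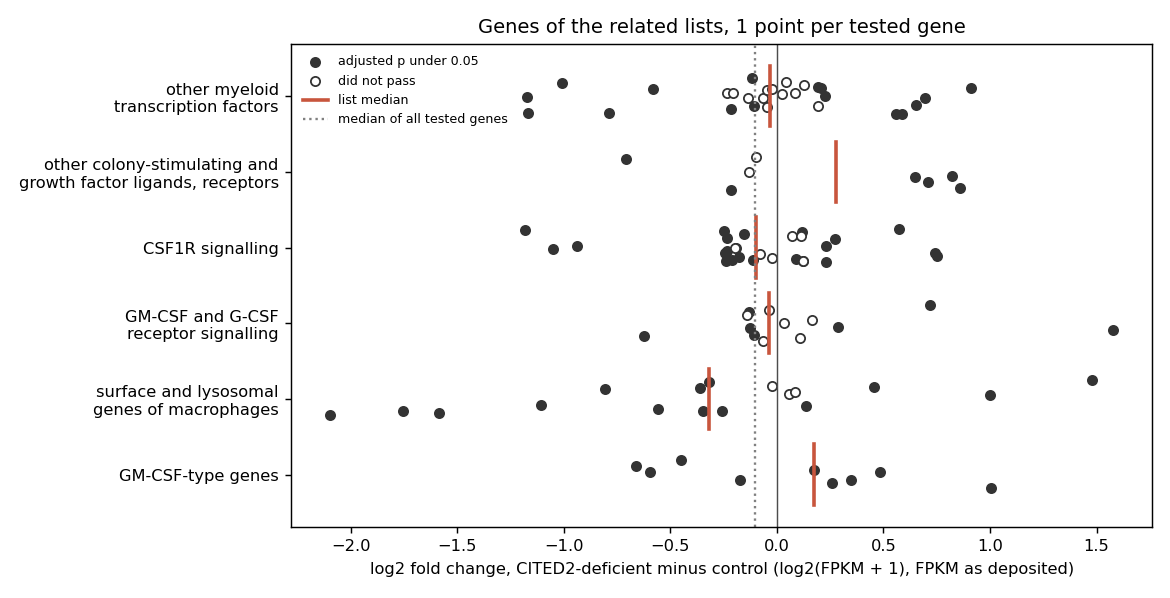
Log2 fold change (CITED2-deficient minus control, FPKM as deposited) of each tested gene in the 6 related lists, filled where the adjusted p was under 0.05. Red lines are list medians, from -0.32 for surface and lysosomal genes to 0.28 for the other growth factor genes, and the dotted line is the median of all tested genes, -0.10.

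Of 6 monocyte markers, 5 were higher, such as *Ly6c2* (7.71 to 36.0 FPKM), and *F13a1* was lower (178 to 24.8 FPKM), so that the sum was 211 to 227 FPKM in control and 164 to 180 in CITED2-deficient BMDMs. Of 4 tested endothelial markers 3 were higher (sum 12.3 to 14.2 against 38.5 to 43.0 FPKM), and of 4 osteoclast markers 2 were higher, or 4 after scaling (sum 211 to 223 against 271 to 276 FPKM). Of 2 tested erythroid and megakaryocyte markers, *Itga2b* was higher and *Pf4* lower (320 to 75.4 FPKM). The dendritic cell list summed to 0.935 to 1.34 FPKM in control and 2.35 to 2.54 in CITED2-deficient BMDMs. The mast cell and basophil list summed to 1.09 to 1.84 in control and 0.421 to 0.618 in CITED2-deficient BMDMs. No gene of either list passed the filter, so none was tested. The lymphocyte list summed to at most 3.67 FPKM in any library, and its 1 tested gene did not pass. *Csf1r*, *Spi1*, *Tyrobp* and *Lgals3*, which macrophages express, were high in both genotypes, as given above. Of the 17 tested surface and lysosomal genes of macrophages, 10 were lower and 4 higher. The lower genes included *Adgre1* (2214 to 1776 FPKM), *C1qa* (1878 to 1275), *Itgam* (89.7 to 50.9) and *Mertk* (45.3 to 37.7). The part of these cell types in the differences of the 9 genes was not tested.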

How the data were processed

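Stranded libraries were made from total RNA after removal of ribosomal RNA and sequenced on a NextSeq 550. Per the labels and the methods of the study, the authors mapped reads to mm10 with STAR and obtained gene-level FPKM with Cuffdiff (Cufflinks) and the GENCODE annotation. Tool versions and the annotation release were not given in the sources used here. The deposited FPKM values were used as given, and no column of per-sample values was left out (0 not used).

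Genes with a mean of at least 1 FPKM over the 6 libraries (11687 of 22248) were compared in R 4.3.3. The limma package (3.58.1) was fitted to log2(FPKM + 1) and let the variance follow a trend with expression, with Benjamini-Hochberg adjustment over all tested genes, a threshold of 0.05 and no fold threshold. A fold change on this scale understates the change of low genes. Within-library ratios were compared with an exact permutation test over 20 splits. Fragment numbers were recovered with GENCODE vM21 transcript lengths and were whole within 0.02 in all libraries for 96.1% of the 22239 matched genes. They were not whole for *Csf1r* and *Csf2ra*, whose fragment numbers are therefore not printed. Replicates of a genotype differed by more than the counting noise, so all 6 were kept. The script was tested on simulated data with the same spread set for all genes and both genotypes. That run checks the code and not these results.

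The 9 genes and all lists were chosen with earlier results of these data known. The text names all 9 genes and, from each of the 6 related lists, the genes past the threshold with no overlap that had the 4 largest changes, the most abundant gene, the partners in ratios, *Cited2*, and markers beside a result. A few of the genes so named, and 1 of the 6 ratios, are left unreported. Alternatives were other pseudocounts (0.1 and 0.5), a mean FPKM of at least 5 or no filter at all, median-ratio scaling, quantile normalization, no variance trend, array weights, a replicate block, limma-voom on recovered fragments and each library left out in turn. Motifs were searched in 32851 promoter windows from RefSeq GRCm38.p6.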

Additional observations from a re-analysis of the deposited data

How the results depend on the processing

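The direction of change held for each of the 9 genes under all 16 alternatives, and the number that passed the threshold was 7 to 9 (main 8). The range was also 7 to 9 when each library was left out in turn. *Spi1* lost its call with no filter (adjusted p = 0.101) and without the variance trend (adjusted p = 0.130), besides the left-out libraries given above. Over all alternatives the log2 fold changes ran from 1.19 to 1.38 for *Csf1*, from -0.80 to -0.68 for *Maf*, from -0.32 to -0.21 for *Csf1r* and from 0.25 to 0.39 for *Csf3r*. For the other colony-stimulating and growth factor genes, a mean FPKM of at least 5 left 3 calls in place of 6, since fewer genes were then tested. Quantile normalization gave 2265 higher and 3125 lower among all genes.

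The replicate numbers of the labels were not taken as pairs, since same-numbered libraries of the genotypes hardly deviated together (correlations of 0.014, 0.0078 and 0.040 over genes). A replicate block left 8 of the 9 genes past the threshold and gave 5708 calls over all genes, against 5994 without it. The depth of *Csf1*, 485 fragments in the shallowest library, allows a counting error of 4.54%, below the 8.25% spread of its control libraries.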
